A study of Homo sapiens with 24 samples.

Results

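The 45 genes described here are targets of the transcription factor ATF4 and genes of the unfolded protein response, 45 of the 26364 genes counted. They were picked by symbol as known pathway genes, by a rule that uses no measured value but with earlier results of these data known, and all 45 were found. By role, 11 are regulators and feedback genes, 8 are amino acid and one-carbon enzymes, 5 are amino acid transporters, 11 charge tRNA or export it, and 10 are ER chaperones or act in ER-associated degradation (ERAD). The cells were clonal lines of T-47D, an ER-positive luminal breast cancer cell line, with an endogenous ESR1 gene that was WT or carried Y537S or D538G on one allele. Each genotype was represented by 2 clones, so a genotype difference is a difference between pairs of clonal lines. All clones were grown in hormone-deprived medium, transfected with oligonucleotides at 10 nM and harvested 24 h later. The mimic negative control and the mimic of miR-301b-3p were given to all 3 genotypes. The miR-331-3p mimic was given to WT and Y537S cells and the miR-181c-5p mimic to WT and D538G cells. Only Y537S cells were given the inhibitor negative control and the inhibitor of let-7f-5p. Mimics are double-stranded RNAs that act as the mature miRNA, while inhibitors bind the cell’s own copy. Each of the 12 conditions has 2 libraries, 1 per clone, 24 libraries in all.

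Libraries held 31379962 to 50526442 counts, and no library was left out. The luminal markers GATA3 (1363 to 1720 CPM) and KRT8 (2243 to 5031 CPM) were high in every library. KRT14, a basal marker, stayed at or below 0.158 CPM and PTPRC, a leukocyte marker, at or below 0.178 CPM. PDGFRB, a fibroblast marker, stayed at or below 0.0959 CPM. Other genes of these marker lists were detected. The collagen gene COL1A1 was at 47.3 to 81.0 CPM, the basal marker TP63 at 0.118 to 8.25 CPM and the leukocyte marker CD68 at 2.34 to 5.51 CPM. Levels are given as CPM, counts scaled to a common library total, with TMM scaling over all libraries, and clone by clone in the order D1 and D4 for WT, A5 and C2 for D538G, and 1 and 2 for Y537S. A gene is called changed where its adjusted p, over all genes tested, was under 0.05 in edgeR's quasi-likelihood test, the source of every adjusted p below. Changes are log2 fold changes ± SE of 2 against 2 libraries. Since treated and control libraries of a clone come from the same line, a fit with the clone as a block (the blocked fit) was also made. Its p or its call is given for most values described where it alters a call. In bulk RNA, fewer cells that express a gene and less RNA per cell cannot be told apart.

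ATF4 is the effector of the integrated stress response. When kinases that sense a shortage of amino acids, unfolded protein in the ER or viral RNA phosphorylate eIF2α, general translation slows while the ATF4 mRNA is translated better, so ATF4 activity is known to be set largely at translation and to be read from its target genes. These targets make and import amino acids, charge tRNAs and, through DDIT3 (CHOP), TRIB3, CHAC1 and PPP1R15A, feed back on the response. The parallel ATF6 and IRE1-XBP1 arms of the unfolded protein response raise ER chaperones such as HSPA5 (BiP) and ERAD genes such as SEL1L. In luminal breast cancer cells, the transporter pair SLC7A5 and SLC3A2, which takes up leucine and other large neutral amino acids, is also known to be under estrogen control.

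The mature sequences of the 4 miRNAs, from RefSeq, are shown because each seed (bases 2 to 8, in capitals) sets which 3′UTRs could be bound directly. No seed is shared between them.
hsa-miR-301b-3p: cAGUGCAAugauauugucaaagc
hsa-miR-331-3p: gCCCCUGGgccuauccuagaa
hsa-miR-181c-5p: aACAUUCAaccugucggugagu
hsa-let-7f-5p: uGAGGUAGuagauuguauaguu

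A 3′UTR was annotated for 44 of the 45 members. A 7-base match to the miR-301b seed (TTGCACT) was present in 7 of these (CEBPG, SESN2, SLC7A11, SLC7A5, LARS, EDEM1 and SEL1L), 15.9% against 14.2% of all 18645 genes with a 3′UTR. The miR-331 match (CCAGGGG) was present in 5 (ALDH1L2, SLC7A1, SLC1A5, PDIA4 and EDEM1), 11.4% against 14.1%. The miR-181c match (TGAATGT) was present in 6 (CEBPG, VLDLR, SLC7A11, SLC7A1, HSP90B1 and SEL1L), 13.6% against 19.5%, and the let-7f match (CTACCTC) in 5 (VLDLR, MTHFD2, ALDH1L2, XPOT and HERPUD1), 11.4% against 9.9%. Thus most members had no seed match for any given miRNA, and HSPA5, ASNS, DDIT3, TRIB3 and ATF4 had none for all 4. The sites of 3 members whose values are described below are shown on the transcript strand with the seed match in capitals. They lie at chr12:104341610-104341637 (plus strand), chr3:5259794-5259821 and chr3:5260901-5260928 (plus strand) and chr16:87866116-87866143 (minus strand) of GRCh37 (hg19), all in 3′UTRs.
HSP90B1, miR-181c: taacattcctcaTGAATGTaaatttgta
EDEM1, miR-331, site 1: tgcaggtgcttcCCAGGGGccacaggct
EDEM1, miR-331, site 2: ttctggagggcaCCAGGGGcctttctct
SLC7A5, miR-301b: gctaccacagacTTGCACTgaagccgga

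Promoter windows (250 bases before to 50 after the start of a gene, RefSeq, GRCh38.p14) were available for 40 members. The ATF4 composite element TGATGNAA, searched on both strands, was present in 11 of them (27.5%) against 3.617% of 35116 windows. These were ATF3, CHAC1, ASNS, SLC3A2, SLC7A1, AARS, NARS, MARS, CARS, IARS and HERPUD1, so 5 of the 10 tRNA genes with a window held it. The ER stress element, CCAAT, 9 bases and CCACG, was present in 4 members (10.0%), all ER chaperone genes (HSPA5, HSP90B1, CALR and CRELD2), against 0.077% of windows. No member window held both motifs. Members were picked as known pathway genes and these are known motifs of such genes, so the shares only describe the list. The background was all windows, not those of genes expressed here, and no test was run. The windows of ASNS (chr7:97872359-97872658, minus strand) and HSPA5 (chr9:125241294-125241593, minus strand), whose values are given for every comparison, are shown as an example of each motif, with its fixed bases in capitals.
ASNS: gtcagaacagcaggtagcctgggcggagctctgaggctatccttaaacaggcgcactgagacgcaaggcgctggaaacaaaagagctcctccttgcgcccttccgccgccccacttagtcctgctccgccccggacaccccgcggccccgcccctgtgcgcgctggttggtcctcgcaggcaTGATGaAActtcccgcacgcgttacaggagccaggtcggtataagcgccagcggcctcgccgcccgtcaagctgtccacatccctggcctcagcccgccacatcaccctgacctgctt
HSPA5: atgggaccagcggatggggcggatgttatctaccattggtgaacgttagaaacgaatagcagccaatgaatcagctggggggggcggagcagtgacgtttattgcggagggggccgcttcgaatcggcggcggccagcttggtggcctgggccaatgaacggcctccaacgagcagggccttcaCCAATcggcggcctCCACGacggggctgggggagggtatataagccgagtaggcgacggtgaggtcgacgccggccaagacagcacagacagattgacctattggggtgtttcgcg

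Per kilobase of transcript, levels in WT control cells spanned more than 3 orders of magnitude among members. The ER chaperones CALR (1392 CPM per kb), HSP90B1 (805 CPM per kb) and HSPA5 (406 CPM per kb) were highest, ATF4 itself was at 141 CPM per kb, and CHAC1, a glutathione-degrading enzyme induced by ATF4, was lowest at 0.401 CPM per kb.

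**Figure D1:**
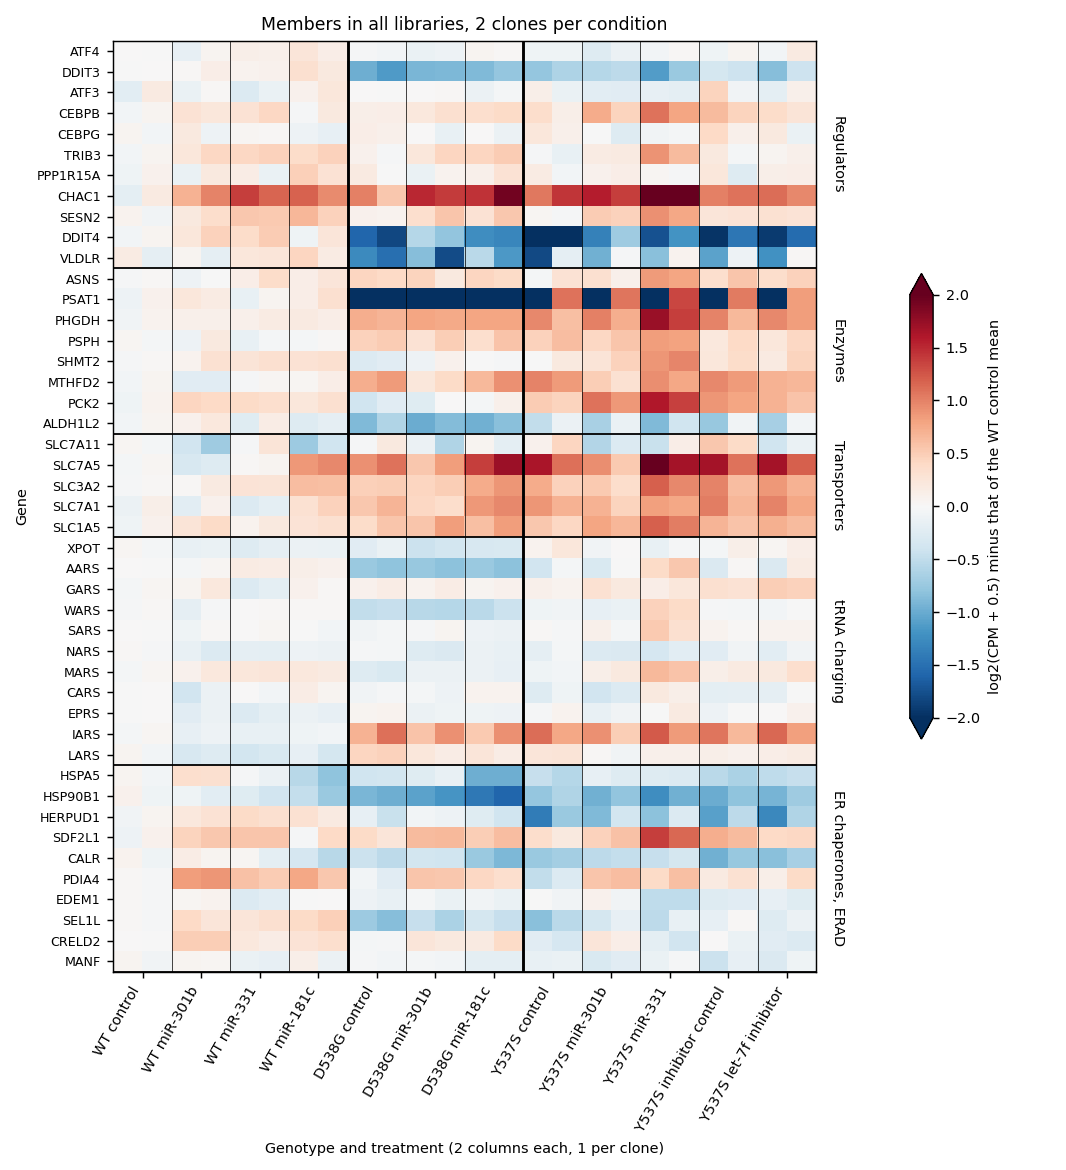
Levels of the 45 members (rows, by role) in the 24 libraries (columns, 2 clones per condition), as log2(CPM + 0.5) minus that of the WT control mean. DDIT4 and PSAT1 were low in D538G libraries, SLC7A5 and IARS were high in both mutants, and PSAT1 was low in clone 1 and not in clone 2 of Y537S.

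In control cells, 19 members differed between Y537S and WT (11 higher, 8 lower), where 29.0% of all genes tested were called, and 23 differed between D538G and WT (10 higher, 13 lower), where 38.9% were called. Both comparisons use the same WT libraries. Called transporters were all higher and called ER genes all lower in both mutants. Of the 5 transporters, 4 were higher in Y537S and 4 in D538G with none lower (medians 0.64 and 0.48 on the log2 scale). Of the 10 ER chaperone and ERAD genes, 6 were lower in Y537S and 4 in D538G with none higher (medians -0.42 and -0.21). The median over all genes tested lay at -0.003 and -0.001.

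SLC7A5 had the largest difference among the transporters, at 389 and 413 CPM in WT, 753 and 853 CPM in D538G and 1241 and 864 CPM in Y537S cells. Both mutants lay above WT without overlap (1.42 ± 0.16, adjusted p = 8.97e-04 for Y537S and 1.00 ± 0.08, adjusted p = 2.53e-05 for D538G). SLC3A2, its heavy chain partner, was higher by 0.64 in Y537S and 0.48 in D538G. Among the enzymes, the mitochondrial one-carbon enzyme MTHFD2 was at 80.1 and 85.8 CPM in WT, 137 and 149.8 CPM in D538G and 165 and 151 CPM in Y537S, again without overlap (0.96 ± 0.08, adjusted p = 3.69e-04 for Y537S and 0.79 ± 0.08, adjusted p = 9.73e-05 for D538G). PHGDH and PSPH, which make serine together with PSAT1, were also higher in both mutants. Asparagine synthetase (ASNS) was at 25.1 and 26.1 CPM in WT, 25.1 and 31.6 CPM in Y537S and 34.8 and 33.8 CPM in D538G, and it was called higher in D538G (0.42 ± 0.10, adjusted p = 0.00736) but not in Y537S (0.17 ± 0.14, adjusted p = 0.388).

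PSAT1, the aminotransferase between PHGDH and PSPH, did not follow its neighbours. It was at 26.8 and 30.7 CPM in WT and 0.0547 and 0.477 CPM in D538G control cells, and the 6 D538G libraries held only 2 to 20 PSAT1 counts each. The difference was -6.78 ± 0.39, adjusted p = 6.85e-06. From pooled counts alone (1996 in WT and 18 in D538G), WT was 111 times higher, with an exact 95% interval of 70.3 to 188 that covers counting error only. The Y537S clones disagreed with each other, at 1.57 and 61.6 CPM, and clone 2 was 24.7 to 39.3 times above clone 1 in each of the 5 Y537S conditions. The Y537S mean for PSAT1 therefore describes neither clone.

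The tRNA genes split. IARS, the isoleucine tRNA synthetase, was at 119 and 126 CPM in WT, 199 and 261 CPM in D538G and 266 and 209 CPM in Y537S cells and was higher in both mutants (0.99 ± 0.12, adjusted p = 0.0012 and, for D538G, 0.92 ± 0.12, adjusted p = 3.51e-04). LARS was the other one called higher in both. AARS, the alanine tRNA synthetase, was at 420.1 and 418 CPM in WT and 250.2 and 239 CPM in D538G and had the largest deficit of this group in D538G (-0.77 ± 0.06, adjusted p = 3.67e-05), with WARS and MARS also lower there.

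Among the regulators, ATF4 mRNA differed little, at 201 and 199 CPM in WT, 197 and 192 CPM in D538G and 189 and 188 CPM in Y537S cells (-0.05 ± 0.07, adjusted p = 0.6 for Y537S and -0.04 ± 0.07, adjusted p = 0.683 for D538G). DDIT3, the stress-induced transcription factor CHOP, was lower in both mutants, at 36.6 and 37.4 CPM in WT, 18.5 and 16.7 CPM in D538G and 21.4 and 23.8 CPM in Y537S (-0.68 ± 0.11, adjusted p = 0.00485 for Y537S and -1.07 ± 0.11, adjusted p = 8.24e-05 for D538G). DDIT4 (REDD1), an inhibitor of mTORC1, showed the largest deficit, from 87.3 and 93.8 CPM in WT to 29.9 and 25.3 CPM in D538G and 15.8 and 21.6 CPM in Y537S (-1.71 ± 0.10, adjusted p = 7.08e-06 for D538G and -2.25 ± 0.16, adjusted p = 1.48e-04 for Y537S). CHAC1 went the other way in Y537S, from 0.466 and 0.752 CPM to 1.80 and 2.50 CPM (1.85 ± 0.44, adjusted p = 0.0193). Thus members annotated as ATF4 targets were found on both sides of WT, and no regulator was called higher in both mutants.

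Of the ER genes, HSPA5 fell from 1646 and 1539 CPM in WT to 1209 and 1229 CPM in D538G and 1159 and 1068 CPM in Y537S cells (-0.38 ± 0.06, adjusted p = 0.00114 for D538G and -0.49 ± 0.08, adjusted p = 0.00544 for Y537S). HSP90B1 (GRP94) showed the largest deficit of the group in D538G, with 2369.8 and 2108 CPM in WT against 1187 and 1133 CPM (-0.95 ± 0.07, adjusted p = 2.27e-05). HERPUD1, an ERAD gene, did so in Y537S, with 61.5 and 67.2 CPM in WT against 24.1 and 38.3 CPM (-1.01 ± 0.20, adjusted p = 0.00974). CALR and SEL1L were called lower in both mutants as well. Without the D1 library of WT control cells fewer members were called for Y537S, and fewer of all genes as well.

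**Figure D2:**
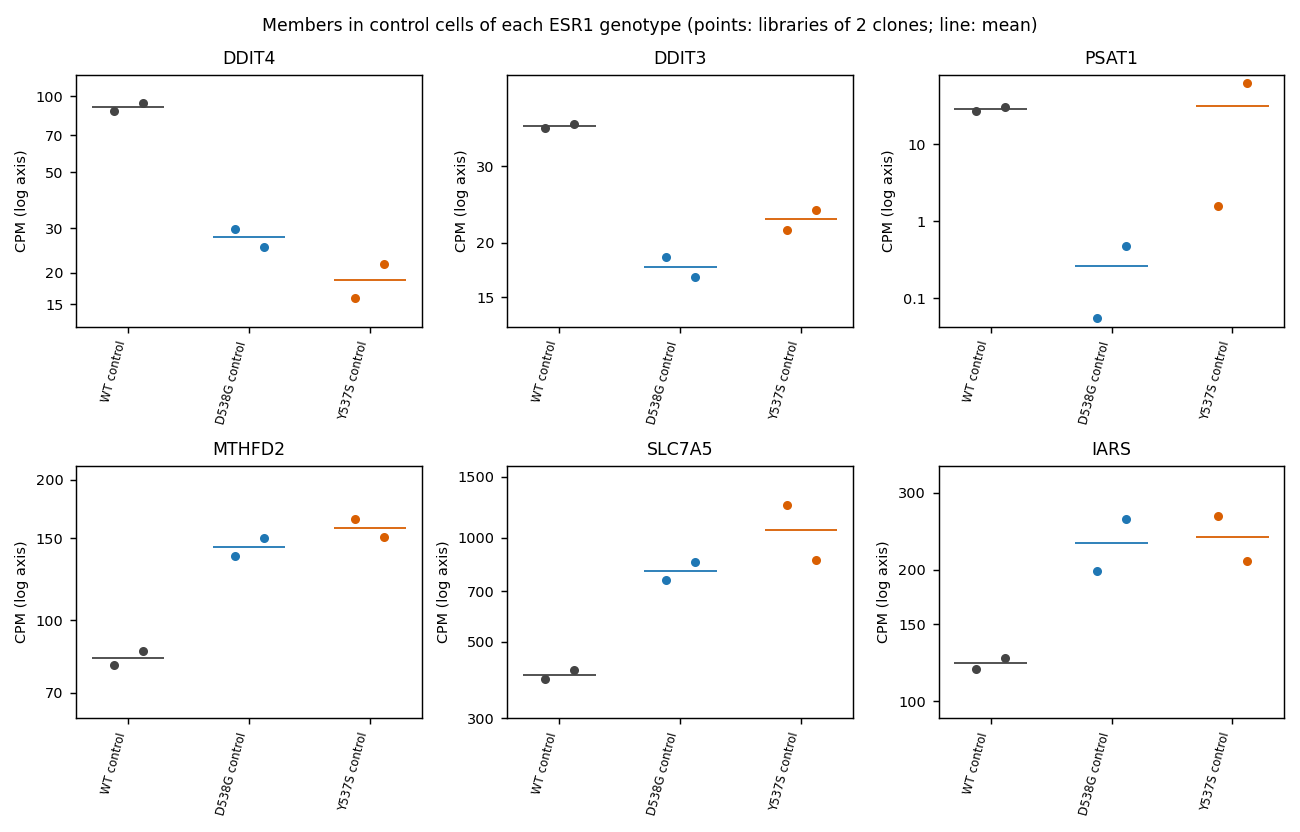
CPM on log axes of 6 members in control cells of the 3 genotypes, with a point per clone and a line at the mean of 2. DDIT4 and DDIT3 were below WT in all 4 mutant libraries and MTHFD2, SLC7A5 and IARS above it, while PSAT1 was at 1.57 CPM in 1 Y537S clone and 61.6 CPM in the other.

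The 2 clones of a genotype differed most in Y537S. Over its conditions the median log2 ratio of the clones exceeded 0.5 in size for 5 members (PSAT1, VLDLR, HERPUD1, DDIT4 and ALDH1L2), against 2 in D538G (PSAT1 and VLDLR) and 0 in WT. The PSAT1 difference recurred in all 5 Y537S conditions.

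**Figure D3:**
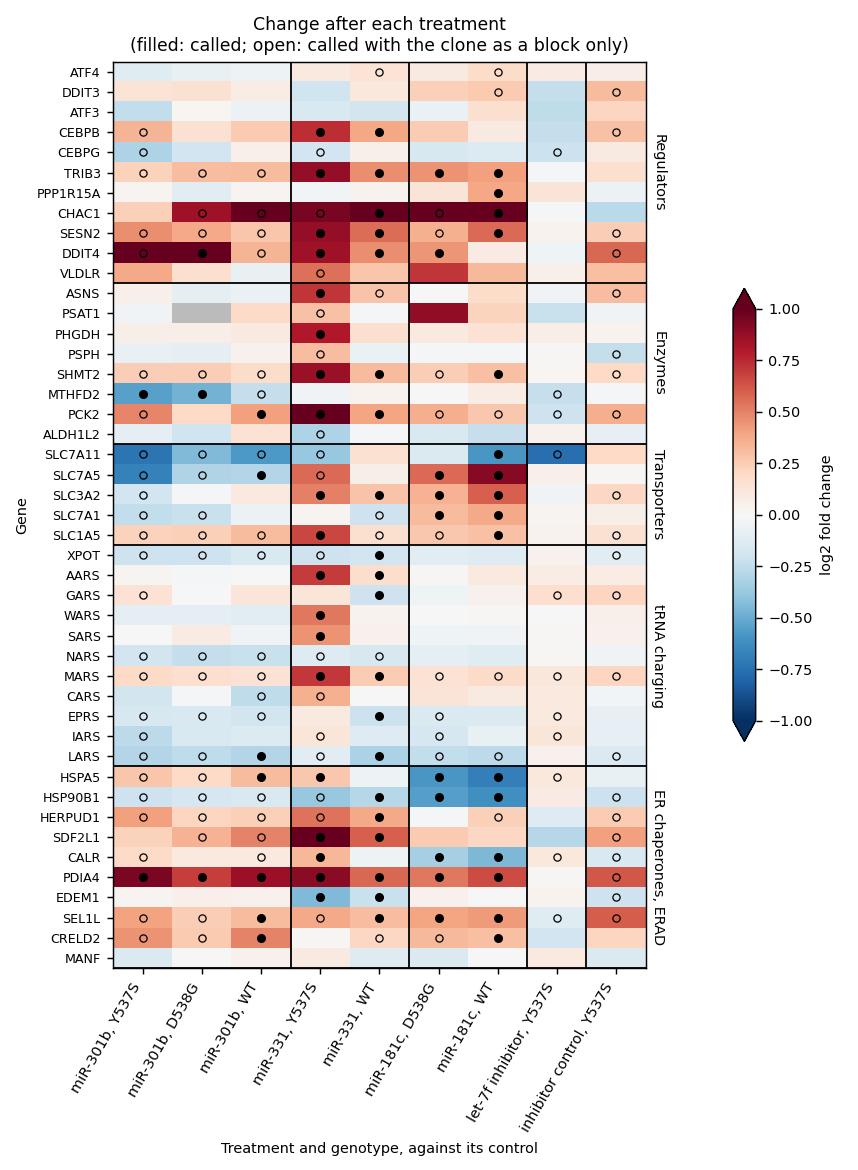
Log2 fold change (colour) of the 45 members in the 8 treatment comparisons and, in the last column, between the control oligonucleotides of Y537S cells; filled circles mark called members and open circles those called with the clone as a block only. PDIA4 rose after every mimic, HSPA5, HSP90B1 and CALR fell after miR-181c, and 18 of the 45 members rose and 1 fell after miR-331 in Y537S. Grey marks PSAT1 in D538G, which was not tested for miR-301b.

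The miR-331 mimic changed the most members, and in Y537S cells nearly all in one direction. There, 18 members rose and 1 fell (19 of 45, against 33.0% of all genes tested), with a median of 0.33 over members and -0.010 over all genes. In WT cells 14 rose and 6 fell (20 of 45, against 24.8%), with a median of 0.06 over members and -0.002 over all genes. With the clone as a block, 27 rose and 8 fell in Y537S (60.7% of all genes called), and 18 rose and 8 fell in WT (37.0%). Regulators, enzymes and transporters that were called all rose in both genotypes, with 4, 4 and 2 in Y537S and 5, 2 and 1 in WT.

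Among the regulators, TRIB3, a pseudokinase that restrains ATF4 and CHOP, was at 75.5 and 69.1 CPM in Y537S control cells and 143 and 118 CPM with miR-331, a 1.84-fold rise (0.88 ± 0.12, adjusted p = 0.00796). In WT cells it went from 73.7 and 79.1 CPM to 102 and 105 CPM (0.46 ± 0.07, adjusted p = 8.66e-04). All treated libraries lay above all controls of their genotype. CHAC1 rose in WT from 0.466 and 0.752 CPM to 2.39 and 2.0 CPM (1.88 ± 0.39, adjusted p = 0.00582), a gene of few counts. DDIT4 also rose in both genotypes, at 26.6 and 39.2 CPM with miR-331 in Y537S (0.85 ± 0.25, adjusted p = 0.0493) and 117 and 129 CPM in WT (0.47 ± 0.07, adjusted p = 0.00139).

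Neither ATF4 nor DDIT3 was called. ATF4 was at 193 and 203 CPM in Y537S with miR-331 (0.10 ± 0.09, adjusted p = 0.426) and 218 and 214 CPM in WT (0.14 ± 0.06, adjusted p = 0.102, and 0.0308 in the blocked fit). DDIT3 was at 16.8 and 21.8 CPM in Y537S (-0.20 ± 0.18, adjusted p = 0.422) and 38.9 and 39.4 CPM in WT (0.10 ± 0.08, adjusted p = 0.365). The downstream genes that rose therefore did so without a called change of the ATF4 mRNA, whose protein was not measured.

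Among the enzymes, PCK2, the mitochondrial phosphoenolpyruvate carboxykinase, was at 36.0 and 34.2 CPM in Y537S controls and 77.0 and 65.9 CPM with miR-331 (1.05 ± 0.11, adjusted p = 0.00618), a 2.07-fold rise. In WT it went from 23.8 and 26.5 CPM to 32.8 and 32.0 CPM (0.39 ± 0.09, adjusted p = 0.0117). SHMT2, which feeds serine into mitochondrial one-carbon metabolism, went from 128 and 148 CPM to 238 and 256 CPM in Y537S (0.87 ± 0.11, adjusted p = 0.00733) and from 127 and 131 CPM to 154 and 162 CPM in WT (0.31 ± 0.06, adjusted p = 0.00429). ASNS, whose promoter window was shown above, went from 25.1 and 31.6 CPM to 46.6 and 44.9 CPM in Y537S (0.72 ± 0.14, adjusted p = 0.0171). In WT it went from 25.1 and 26.1 CPM to 28.3 and 33.0 CPM (0.28 ± 0.10, adjusted p = 0.0606, and 0.0101 in the blocked fit). PHGDH rose in Y537S (0.80 ± 0.17, against 0.16 ± 0.07 in WT), and the difference between the genotypes was called with the clone as a block only. MTHFD2 was flat in both (-0.04 and 0.03).

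Of the transporters, SLC1A5, a glutamine carrier with a miR-331 seed match, had the largest rise in Y537S, from 202 and 185 CPM to 319.9 and 282 CPM (0.67 ± 0.10, adjusted p = 0.00921). SLC3A2 rose in both genotypes, to 523 and 445 CPM in Y537S (0.50 ± 0.13, adjusted p = 0.0333) and to 274 and 273 CPM in WT (0.29 ± 0.06, adjusted p = 0.00452). SLC7A1, with 3 matches, changed by 0.03 in Y537S and -0.21 in WT, a fall called in the blocked fit only (adjusted p = 0.0243).

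Of the 11 tRNA genes, 4 rose in Y537S (MARS, AARS, WARS and SARS). MARS, the methionine tRNA synthetase, went from 208 and 214 CPM to 348 and 328 CPM in Y537S (0.71 ± 0.08, adjusted p = 0.00665) and from 216 and 226 CPM to 258 and 261 CPM in WT (0.26 ± 0.06, adjusted p = 0.00886). AARS went from 320.2 and 407 CPM to 548 and 612 CPM in Y537S (0.70 ± 0.14, adjusted p = 0.0181) and from 420.1 and 418 CPM to 468 and 464 CPM in WT (0.18 ± 0.05, adjusted p = 0.0294). These were the only 2 that rose in WT, where 4 fell (LARS, EPRS, GARS and XPOT). LARS showed the largest of these falls, from 280.1 and 259 CPM to 209 and 217 CPM (-0.31 ± 0.06, adjusted p = 0.00411), and in Y537S it was at 290.1 and 289 CPM against 318 and 322 CPM (-0.12 ± 0.08, adjusted p = 0.314, and 0.045 in the blocked fit). Without a correction for GC content (described below), the tRNA genes thus did not move as one group. With that correction and the clone as a block, all 11 lay above 0 in Y537S, with 9 called as rises and 0 as falls. That fit called 53.5% of all genes. In WT it called 2 rises and 1 fall among the 11, and 22.6% of all genes. None of the 4 falls in WT was called after the GC correction alone.

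Of the 10 ER genes, 4 rose and 1 fell in Y537S, and 4 rose and 2 fell in WT. SDF2L1, a co-factor of HSPA5, rose most, from 16.3 and 14.6 CPM to 33.7 and 28.8 CPM in Y537S (1.04 ± 0.14, adjusted p = 0.0076) and from 11.8 and 13.6 CPM to 18.9 and 18.9 CPM in WT (0.60 ± 0.12, adjusted p = 0.00474). HSPA5 rose in Y537S, to 1328 and 1313 CPM from 1159 and 1068 CPM (0.27 ± 0.08, adjusted p = 0.0445), and was at 1563 and 1467 CPM against 1646 and 1539 CPM in WT (-0.05 ± 0.06, adjusted p = 0.596). EDEM1, an ERAD lectin with 2 miR-331 seed matches, fell in both, from 76.2 and 73.1 CPM to 54.1 and 53.8 CPM in Y537S (-0.44 ± 0.09, adjusted p = 0.0173) and from 78.3 and 75.6 CPM to 63.7 and 66.2 CPM in WT (-0.22 ± 0.06). HSP90B1 showed the largest fall in WT, from 2369.8 and 2108 CPM to 1892 and 1715 CPM (-0.29 ± 0.07, adjusted p = 0.00983).

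The response itself was compared between Y537S and WT cells by an interaction term. It was larger in Y537S for 4 members, SHMT2, PCK2, WARS and MARS, and smaller for 0, where 9.94% of all genes tested were called. The difference was 0.47 ± 0.09, adjusted p = 0.0176 for WARS, the tryptophan tRNA synthetase. WARS was at 200.0 and 203 CPM in Y537S controls and 292 and 279 CPM with the mimic, but at 210.0 and 216 CPM and 214 and 216 CPM in WT. For MARS the difference was 0.44 ± 0.09, adjusted p = 0.0263, for SHMT2 0.54 ± 0.12, adjusted p = 0.0315 and for PCK2 0.65 ± 0.15, adjusted p = 0.0319. With the clone as a block, 23 members had a larger and 2 a smaller response in Y537S (34.1% of all genes called), including 8 of the 11 tRNA genes and 6 of the 8 enzymes. The median of the difference was 0.29 over members and -0.030 over all genes. DDIT3 had a difference of -0.32 ± 0.19, adjusted p = 0.305, and 0.0432 in the blocked fit, ASNS one of 0.42 ± 0.18, adjusted p = 0.181, and 0.0117 in the blocked fit, HSPA5 one of 0.30 ± 0.10, adjusted p = 0.0961, and 9.70e-05 in the blocked fit and ATF4 one of -0.05 ± 0.09, adjusted p = 0.769. The 4 calls were lost without any 1 of the 4 WT libraries, where fewer of all genes were called too. Fewer members were called without either Y537S control library or the miR-331 library of clone 1. More were called without the miR-331 library of clone 2. The calls over all genes moved in the same directions.

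**Figure D4:**
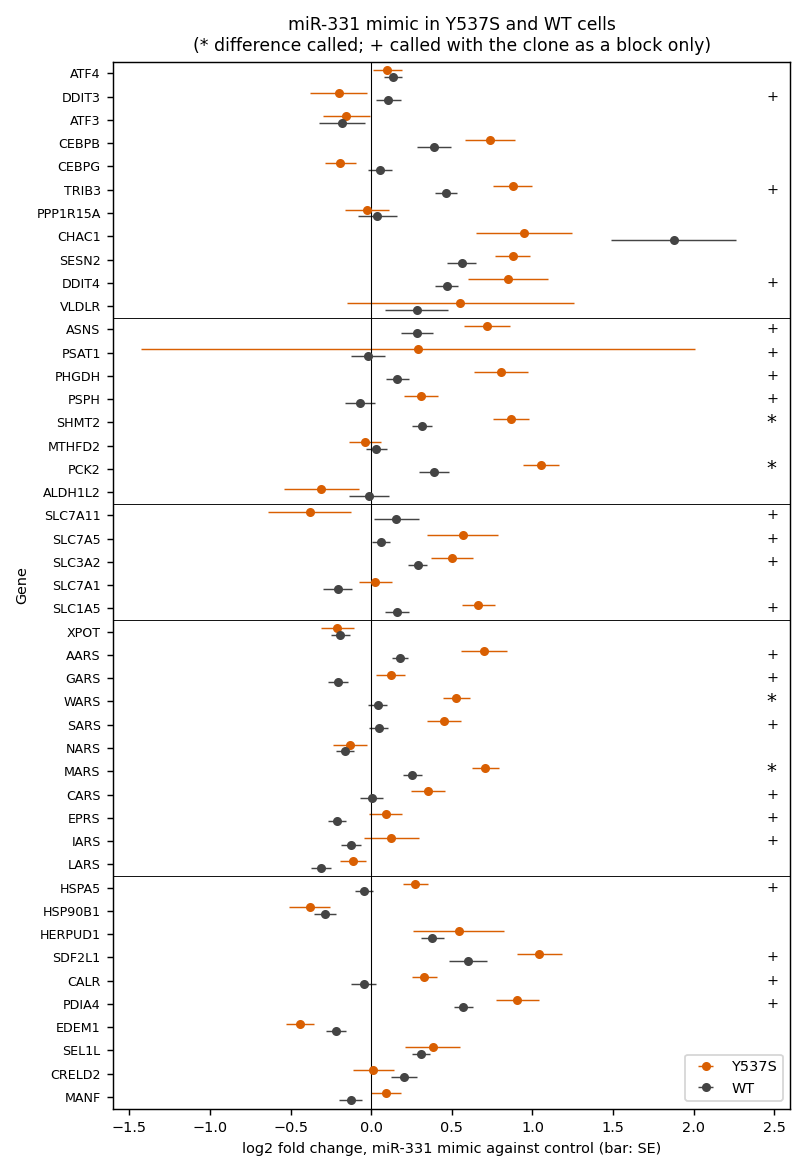
Log2 fold change of each member after the miR-331 mimic in Y537S (orange) and WT (grey) cells, with SE bars from 2 against 2 libraries; asterisks mark the 4 members whose responses differed and plus signs those called with the clone as a block only. Enzymes and tRNA synthetases lie to the right of their WT values in most rows, and ATF4 lies near 0 in both.

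Gene composition moved with these results. After each mimic, genes of high GC content rose relative to genes of low GC content. The median over the fifth of genes above 58.6% to 58.7% GC was 0.29 to 0.50 in the 7 mimic comparisons, and over the fifth below 40.8% to 40.9% it was -0.41 to -0.15. After a correction for GC content in each library, miR-331 changed 12 members in Y537S (11 rose, 1 fell, against 20.5% of all genes called), of which 11 had been called before, and 9 in WT (8 rose, 1 fell, against 7.68%), of which 6 had been. The response differed between Y537S and WT for 3 members after the correction (against 7.70% of all genes), PCK2, WARS and SLC1A5, so SHMT2 (0.42) and MARS (0.30) lost their calls. TRIB3, SESN2, ASNS, SHMT2, PCK2, WARS, MARS, HSPA5, SDF2L1, PDIA4 and EDEM1 were the 11 kept in Y537S. TRIB3, at 61.5% GC, was not among those kept in WT, where its corrected change was 0.15, and LARS, at 41.4% GC, was not kept there either, with a corrected change of -0.12. The part of GC content in the changes was not tested further. Leaving out the miR-331 library of clone D1 or D4 lowered the count of called members in WT, and that of all genes as well.

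After the miR-181c mimic the 3 most abundant ER chaperones fell in both genotypes, and SLC7A5, SLC3A2 and SLC7A1 among the transporters rose in both. In D538G cells 7 members rose and 3 fell (10 of 45, against 9.52% of all genes), and in WT cells 12 rose and 4 fell (16 of 45, against 16.4%). With the clone as a block, 14 rose and 6 fell in D538G (29.3% of all genes called), and 17 rose and 5 fell in WT (27.9%). The medians over members were 0.09 and 0.15, against -0.003 and 0.010 over all genes.

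HSPA5, which holds unfolded proteins and the ER stress sensors, went from 1209 and 1229 CPM to 809.7 and 806 CPM in D538G (-0.58 ± 0.06, adjusted p = 0.00173) and from 1646 and 1539 CPM to 1080.2 and 916 CPM in WT (-0.68 ± 0.08, adjusted p = 6.87e-04). All 4 treated libraries lay below the controls of their genotype. HSP90B1, which has the miR-181c seed match printed above, fell by 0.55 on the log2 scale in D538G and by 0.62 in WT, from 2369.8 and 2108 CPM to 1601 and 1334 CPM there. CALR, which like HSPA5 has no match, fell by 0.34 in D538G and by 0.45 in WT. The same 3 genes carry the ER stress element in their promoter windows, and so does CRELD2, which rose in WT (0.30 ± 0.09) and in D538G was called in the blocked fit only (0.32 ± 0.10, adjusted p = 0.081, and 0.00244 in the blocked fit). The falls of HSPA5, HSP90B1 and CALR and the rises of PDIA4 and SEL1L were also called after the GC correction in both genotypes, and the rise of CRELD2 was not.

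Against these, PDIA4 and SEL1L rose in both genotypes. PDIA4, a protein disulfide isomerase of the ER, went from 161 and 142 CPM to 221 and 211 CPM in D538G (0.53 ± 0.08, adjusted p = 0.00694) and from 169 and 164 CPM to 283 and 243 CPM in WT (0.65 ± 0.08, adjusted p = 8.99e-04). The ER genes therefore moved in both directions after miR-181c, with 3 of 10 falling in each genotype.

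Of the 5 transporters, 3 rose in D538G, and 4 rose and 1 fell in WT. SLC7A5 rose most, from 753 and 853 CPM to 1043 and 1317 CPM in D538G (0.57 ± 0.10, adjusted p = 0.0121) and from 389 and 413 CPM to 736 and 777 CPM in WT (0.91 ± 0.07, adjusted p = 6.89e-05), a 1.88-fold rise. SLC3A2 followed, from 316 and 319 CPM to 383 and 421 CPM in D538G (0.35 ± 0.07, adjusted p = 0.0179) and from 224 and 232 CPM to 348 and 344 CPM in WT (0.60 ± 0.07, adjusted p = 4.60e-04). SLC7A1, the cationic amino acid transporter with 1 miR-181c match, rose as well (0.32 and 0.38). SLC7A11, the cystine importer with 3 matches, was the one that fell in WT, from 12.2 and 11.6 CPM to 6.98 and 8.91 CPM (-0.58 ± 0.17, adjusted p = 0.042), while in D538G it changed by -0.14 ± 0.16. After the GC correction alone no transporter was called in D538G, and in WT SLC7A5 and SLC3A2 were and SLC7A1, SLC1A5 and SLC7A11 were not. With the clone as a block as well, 3 transporters rose in D538G and 3 in WT (18.8% and 16.9% of all genes called).

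TRIB3 rose in both genotypes, to 103 and 109 CPM in D538G (0.45 ± 0.08, adjusted p = 0.0126) and to 99.1 and 105 CPM in WT (0.41 ± 0.08, adjusted p = 0.00719). DDIT4 rose in D538G, to 38.2 and 36.2 CPM (0.44 ± 0.11, adjusted p = 0.0362), and was at 85.4 and 108 CPM in WT (0.09 ± 0.11, adjusted p = 0.645). CHAC1 had the largest rise among regulators in WT, to 2.02 and 1.63 CPM (1.58 ± 0.42, adjusted p = 0.0307). After the GC correction alone no regulator was called in either genotype. With the clone as a block as well, 4 rose in D538G and 3 in WT (18.8% and 16.9% of all genes called). ATF4 was at 208 and 203 CPM in D538G (0.09 ± 0.07, adjusted p = 0.467) and 238 and 219 CPM in WT (0.18 ± 0.07, adjusted p = 0.111, and 0.031 in the blocked fit). DDIT3 was at 19.7 and 21.4 CPM in D538G (0.23 ± 0.12, adjusted p = 0.273) and 46.6 and 42.6 CPM in WT (0.26 ± 0.09, adjusted p = 0.0768, and 0.023 in the blocked fit).

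Few enzymes and tRNA genes were called. SHMT2 was the one enzyme called, in WT and not after the GC correction, at 159 and 162 CPM (0.30 ± 0.07, adjusted p = 0.0173), and in D538G it was at 128 and 128 CPM (0.25 ± 0.07, adjusted p = 0.0646, and 8.54e-04 in the blocked fit). ASNS was at 34.7 and 33.4 CPM in D538G (0.00 ± 0.09, adjusted p = 0.996) and 28.0 and 30.4 CPM in WT (0.18 ± 0.10, adjusted p = 0.265). None of the 11 tRNA genes was called in either genotype, and their log2 fold changes ran from -0.24 to 0.15 in D538G and from -0.26 to 0.19 in WT. In the blocked fit 1 rose (MARS) and 3 fell (EPRS, IARS and LARS) in D538G, and 1 rose (MARS) and 1 fell (LARS) in WT. After the GC correction alone, 5 members were called in D538G (2 rose, 3 fell, against 1.38% of all genes called). In WT 8 were called (5 rose, 3 fell, against 7.36%). With the clone as a block as well, 12 rose and 3 fell in D538G (18.8% of all genes called), and 13 rose and 3 fell in WT (16.9%). The balance of rises and falls in D538G thus depended on the fit. No member responded differently in D538G and WT cells by the interaction test (0 of 45, with 3 at an unadjusted p under 0.05, against 0.00646% of all genes called, and 0 with the clone as a block, against 0.0775%). The differences were 0.10 ± 0.11 for HSPA5, -0.17 ± 0.13 for ASNS, -0.09 ± 0.09 for ATF4 and -0.02 ± 0.14 for DDIT3. Without the miR-181c library of clone C2 fewer members were called in D538G, and without the D1 or D4 control library fewer were in WT. Calls over all genes were fewer in these fits as well.

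**Figure D5:**
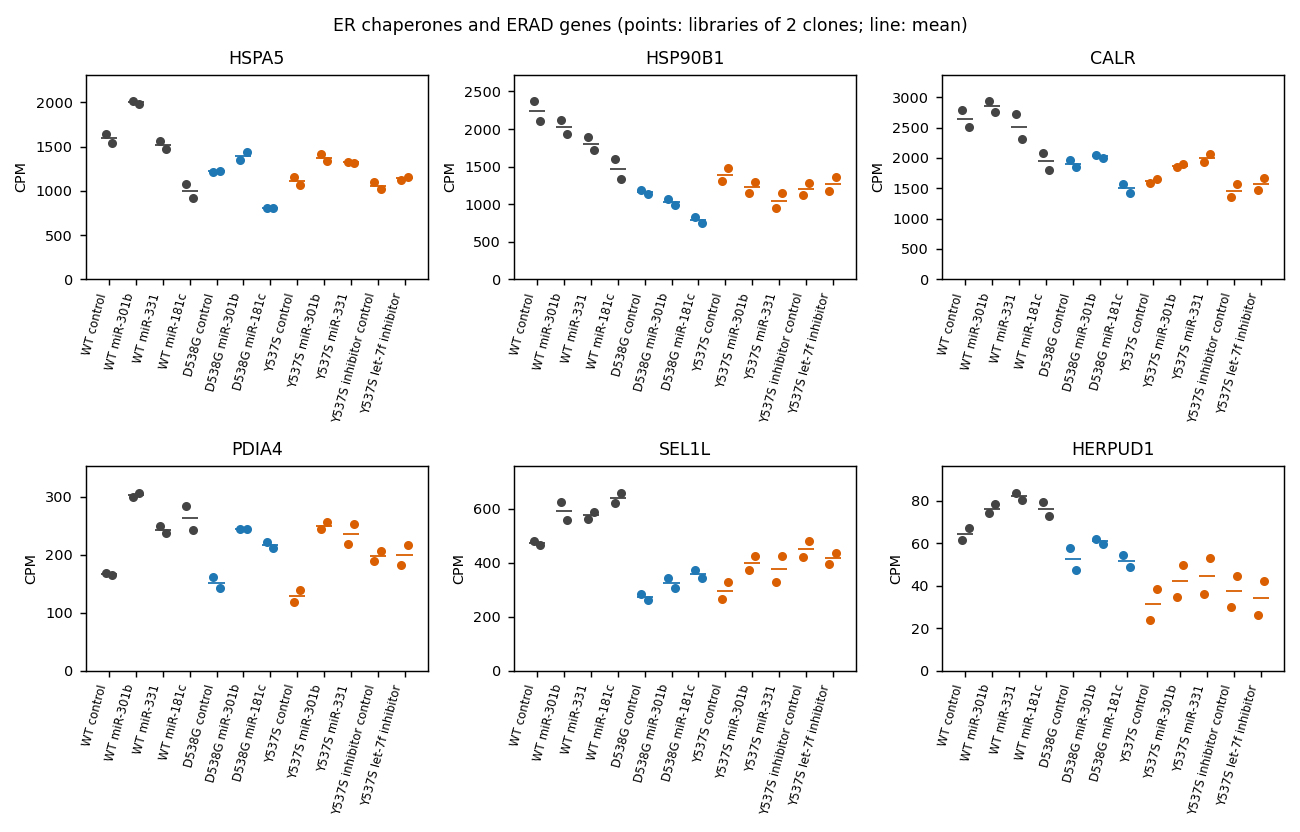
CPM of 6 ER genes in the 12 conditions, with a point per clone and a line at the mean of 2; grey is WT, blue D538G and orange Y537S. HSPA5, HSP90B1 and CALR were lowest within WT and D538G after miR-181c, and PDIA4 and SEL1L were higher after the mimics and also in the inhibitor control than in the mimic control of Y537S cells.

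The miR-301b mimic, the one given to all 3 genotypes, changed few members without the block. In Y537S 1 rose and 1 fell (2 of 45, against 3.57% of all genes), in D538G 2 rose and 1 fell (3 of 44 tested, against 11.8%), and in WT 5 rose and 2 fell (7 of 45, against 8.50%). With the clone as a block these became 15 and 12 in Y537S (38.4% of all genes called), 13 and 9 in D538G (33.3%) and 15 and 9 in WT (28.2%). Medians over members were 0.03, 0.01 and 0.05, close to those of all genes (0.007, 0.006 and 0.000).

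PDIA4 was the member called in all 3 genotypes. It went from 118 and 138 CPM to 243 and 257 CPM in Y537S (0.94 ± 0.11, adjusted p = 0.0235), from 161 and 142 CPM to 244 and 243 CPM in D538G (0.69 ± 0.09, adjusted p = 0.00364) and from 169 and 164 CPM to 299 and 307 CPM in WT (0.86 ± 0.07, adjusted p = 9.93e-04). With miR-331 it was at 218 and 253 CPM in Y537S (0.91 ± 0.13, adjusted p = 0.00849) and 249 and 237 CPM in WT (0.57 ± 0.06, adjusted p = 1.76e-04), although it holds a miR-331 seed match. PDIA4 was thus called in 7 of the 8 treatment comparisons, the most of any member, though mimics given to a genotype share their control libraries. HSPA5 was at 1415 and 1332 CPM in Y537S (0.28 ± 0.08, adjusted p = 0.103, and 2.37e-06 in the blocked fit), 1345 and 1441 CPM in D538G (0.20 ± 0.07, adjusted p = 0.103, and 0.00214 in the blocked fit) and 2012 and 1985 CPM in WT (0.32 ± 0.06, adjusted p = 0.0221). In WT cells HSPA5 thus rose after miR-301b and fell after miR-181c.

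MTHFD2 fell in Y537S, from 165 and 151 CPM to 117 and 103 CPM (-0.54 ± 0.10, adjusted p = 0.0493), and in D538G, from 137 and 149.8 CPM to 96.8 and 109 CPM (-0.47 ± 0.09, adjusted p = 0.0141), while in WT its change was -0.24 ± 0.08, adjusted p = 0.109, and 0.015 in the blocked fit. It has no miR-301b seed match. After the GC correction alone MTHFD2 was not called in either mutant (changes of -0.36 and -0.28), but with the clone as a block as well it was called in both. The calls of PDIA4 in Y537S and of PCK2 and LARS in WT (the last 2 given below) were also lost after the GC correction alone. PCK2 rose in WT, to 34.1 and 33.1 CPM (0.41 ± 0.10, adjusted p = 0.0476). It was at 53.9 and 46.4 CPM in Y537S (0.49 ± 0.11, adjusted p = 0.0731, and 5.66e-07 in the blocked fit) and 21.1 and 25.3 CPM in D538G (0.20 ± 0.13, adjusted p = 0.358).

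SLC7A5, which holds the site printed above, fell in WT from 389 and 413 CPM to 322 and 336 CPM (-0.29 ± 0.07, adjusted p = 0.0398). It was at 764 and 577 CPM in Y537S (-0.67 ± 0.20, adjusted p = 0.116, and 4.94e-24 in the blocked fit) and 585 and 714 CPM in D538G (-0.30 ± 0.10, adjusted p = 0.0882, and 1.97e-06 in the blocked fit), below the controls in each clone. LARS, another member with a match, fell in WT from 280.1 and 259 CPM to 217 and 226 CPM (-0.29 ± 0.07, adjusted p = 0.0466) and changed by -0.29 ± 0.08, adjusted p = 0.101, and 3.13e-06 in the blocked fit in Y537S and -0.25 ± 0.08, adjusted p = 0.057, and 2.76e-04 in the blocked fit in D538G. Of the 5 other members with a match, SLC7A11 changed by -0.73, -0.44 and -0.57 in Y537S, D538G and WT, and its fall was called in the blocked fit only (adjusted p = 1.33e-06, 0.0101 and 0.00755). CEBPG changed by -0.31, -0.19 and 0.05 and was called in the blocked fit in Y537S (adjusted p = 5.93e-04). SESN2 changed by 0.47, 0.38 and 0.28, a rise in the blocked fit only (adjusted p = 1.58e-05, 6.02e-04 and 0.0489). SEL1L rose in WT (0.31 ± 0.08, adjusted p = 0.0447) and was called in Y537S and D538G in the blocked fit only (0.41 ± 0.13, adjusted p = 0.144, and 8.44e-11 in the blocked fit, with 0.25 ± 0.09, adjusted p = 0.0928, and 5.27e-04 in the blocked fit for D538G). EDEM1 was called in neither fit (0.03, 0.05 and 0.04). Members with a match therefore lay on both sides of 0.

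DDIT4 rose in D538G from 29.9 and 25.3 CPM to 60.9 and 52.2 CPM (1.04 ± 0.12, adjusted p = 0.00265). It was at 35.0 and 55.3 CPM in Y537S (1.25 ± 0.26, adjusted p = 0.0602, and 5.51e-25 in the blocked fit) and 106 and 124 CPM in WT (0.34 ± 0.10, adjusted p = 0.0648, and 0.00107 in the blocked fit). ATF4 was at 168 and 184, 183 and 186 and 179 and 209 CPM in Y537S, D538G and WT, with changes of -0.12 ± 0.09, -0.07 ± 0.08 and -0.05 ± 0.09. DDIT3 was at 24.8 and 25.7, 19.4 and 19.6 and 37.6 and 40.8 CPM, with changes of 0.13 ± 0.12, 0.16 ± 0.13 and 0.07 ± 0.09. ASNS was at 32.1 and 27.7, 34.9 and 29.4 and 23.9 and 25.4 CPM, with changes of 0.05 ± 0.16, -0.09 ± 0.11 and -0.07 ± 0.10. None of these 3 was called after miR-301b, with or without the block.

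No member responded differently to miR-301b in Y537S and WT cells (0 of 45, with 1 at an unadjusted p under 0.05, against 0.00632% of all genes called) or in D538G and WT cells (0 of 45, with 1 at an unadjusted p under 0.05, against 0.00640%). With the clone as a block, DDIT4 rose more in Y537S (0.92, adjusted p = 4.06e-04) and SLC7A5 fell more there (-0.36, adjusted p = 0.0233), where 0.202% of all genes were called, and DDIT4 rose more in D538G (0.70, adjusted p = 0.00505), where 0.147% were. The differences between Y537S and WT were -0.06 ± 0.12 for ATF4, 0.07 ± 0.15 for DDIT3, 0.13 ± 0.20 for ASNS and -0.03 ± 0.11 for HSPA5, and those between D538G and WT -0.02 ± 0.12, 0.08 ± 0.15, -0.02 ± 0.15 and -0.12 ± 0.10. In WT fewer members were called without either control library and more without the miR-301b library of clone D1, and so it was over all genes. In Y537S fewer members were called without the control library of clone 1 or the miR-301b library of clone 2, again as over all genes. In D538G more members were called without the control or the miR-301b library of clone A5, while calls over all genes rose without that control library only.

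The let-7f inhibitor changed 0 members in edgeR's test, where 0% of all 15140 genes tested were called, and 0 in DESeq2, where 0.397% were. At an unadjusted p under 0.05 in edgeR's test were 3 members and 786 of all 15140 genes. With the clone as a block 6 members rose and 5 fell (11 of 45, against 11.2% of all genes). The largest of these changes was that of SLC7A11, from 17.5 and 15.7 CPM with the inhibitor control to 8.92 and 10.7 CPM (-0.75 ± 0.16, adjusted p = 0.751, and 2.69e-04 in the blocked fit). ATF4 was at 188 and 208 CPM with the control and 193 and 228 CPM with the inhibitor (0.08 ± 0.11), and DDIT3 at 28.9 and 27.6 CPM and 20.3 and 27.7 CPM (-0.23 ± 0.17). ASNS was at 32.4 and 37.7 CPM and 32.9 and 35.6 CPM (-0.04 ± 0.12), and HSPA5 at 1095 and 1024 CPM and 1122 and 1156 CPM (0.10 ± 0.06, adjusted p = 1, and 0.0411 in the blocked fit). Members with a let-7f seed match did not rise together, with changes of 0.05 for VLDLR, -0.23 for MTHFD2 (adjusted p = 7.94e-04 in the blocked fit), 0.04 for ALDH1L2, 0.04 for XPOT and -0.13 for HERPUD1. A list of 16 interferon-stimulated genes moved beside this comparison. Its summed level was 710.3 to 1165 CPM with the inhibitor control and 458.5 to 469.6 CPM with the let-7f inhibitor, and 15 of the 16 fell with the clone as a block. With the mimic control it was 474.6 to 504.6 CPM, so of these conditions the inhibitor control stood apart. The part of this in the members' values was not tested.

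The negative controls of Y537S cells differed from each other for some members. Between the inhibitor control and the mimic control edgeR called 0 members (0% of all genes) and DESeq2 called 2 (0.553% of all genes). At an unadjusted p under 0.05 in edgeR's test were 9 of 45 members and 1123 of 15063 genes. With the clone as a block 15 members were higher and 6 lower with the inhibitor control (21 of 45, against 16.7% of all genes). PDIA4 was at 189 and 206 CPM with the inhibitor control against 118 and 138 CPM with the mimic control (0.62 ± 0.11, adjusted p = 0.486, and 6.97e-12 in the blocked fit). SEL1L was at 420.2 and 481 CPM against 265 and 327 CPM (0.61 ± 0.13, adjusted p = 0.575, and 4.75e-13 in the blocked fit), and DDIT4 at 22.8 and 33.0 CPM against 15.8 and 21.6 CPM (0.57 ± 0.24, adjusted p = 0.692, and 1.75e-05 in the blocked fit). These 3 genes, each called as a rise in at least 4 treatment comparisons, were thus also higher in cells given the other control oligonucleotide. ATF4 (0.07 ± 0.09) and HSPA5 (-0.07 ± 0.07) were not called in either fit, while DDIT3 (0.32 ± 0.11, adjusted p = 0.669, and 0.009 in the blocked fit) and ASNS (0.30 ± 0.16, adjusted p = 0.749, and 0.00452 in the blocked fit) were called with the block. The interferon-stimulated list was also higher with the inhibitor control, 15 of 16 in the blocked fit with a median of 1.77, and its part in these values and in those against the inhibitor control was not tested.

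Against the inhibitor control, an added comparison, PDIA4 changed by 0.33 (adjusted p = 0.148) with miR-301b and by 0.27 (adjusted p = 0.14) with miR-331 in Y537S cells, and 0 members were called for miR-301b (0.441% of all genes), where 1 had risen and 1 fallen against the mimic control. For miR-331, 16 members rose and 0 fell against the inhibitor control, where 26.4% of all genes were called. PCK2 (0.67), TRIB3 (0.70), SHMT2 (0.65), MARS (0.48), AARS (0.61) and SDF2L1 (0.62) were among them, whereas ASNS changed by 0.40 (adjusted p = 0.056). PHGDH, SHMT2, PCK2, AARS, WARS, SARS and MARS were thus called after miR-331 against either control, and ASNS and PDIA4 against the mimic control only. D538G and WT cells were not given the inhibitor control, so this could not be measured in them.

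Over the 8 treatment comparisons, 12 members were never called, 10 were called once, 11 in 2, 6 in 3, 5 in 4 and PDIA4 in 7. The mimics given to a genotype were all compared with the same 2 control libraries, so these comparisons are not independent. Repeated calls can thus share a control value, and the same tally over all genes was not made. The 12 included ATF4, DDIT3 and ATF3 among the regulators and MANF, a secreted ER stress factor, among the ER genes. TRIB3 and DDIT4 were called 4 times each, always as a rise, SLC3A2 4 times as a rise, and HSPA5 4 times, 2 as a rise and 2 as a fall. SHMT2 and PCK2 were called 3 times as a rise, MARS and AARS 2 times as a rise and LARS 2 times as a fall. In the fit with the clone as a block LARS fell in 7 comparisons, MARS rose in 8 and SESN2, another inhibitor of mTORC1, rose in 7.

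Other genes of the pathway were counted from a list of 54, made of stress sensors, further ATF4-linked genes, further tRNA synthetases and further ER folding genes. After miR-331 in Y537S cells 15 of 53 tested rose and 1 fell (30.2%, against 33.0% of all genes), and the smallest p were those of PYCR1, a proline synthesis enzyme (0.94 ± 0.10), EIF4EBP1, a translation repressor (0.78 ± 0.09), and MBTPS1, the protease that activates ATF6 (1.10 ± 0.14). MBTPS1 was at 206 and 257 CPM with the mimic control, 466 and 509 CPM with miR-331 and 367 and 428 CPM with the inhibitor control, against which its change was 0.31 (adjusted p = 0.0992). In WT 11 of 53 rose and 11 fell (41.5%, against 24.8%). After miR-181c 4 rose and 4 fell in D538G (15.1%, against 9.52%), and 3 rose and 7 fell in WT (19.2%, against 16.4%). After miR-301b 1 rose and 1 fell in Y537S (3.85%, against 3.57%), 4 rose and 3 fell in D538G (13.2%, against 11.8%) and 3 rose and 2 fell in WT (9.62%, against 8.50%), and 0 were called for let-7f. Between genotypes, 8 of 52 were higher and 14 lower in Y537S (42.3%, against 29.0%), and 15 higher and 15 lower in D538G (57.7%, against 38.9%), than in WT. The response to miR-331 was larger in Y537S than in WT for 4 of these genes, XBP1 (0.44 ± 0.11), EIF4EBP1 (0.46 ± 0.12), QARS (0.56 ± 0.14) and DERL1 (0.40), and smaller for 0 (7.55%, against 9.94%). Luminal markers moved beside the miR-331 result in both directions. Of the 8 listed, 3 rose and 1 fell in Y537S (33.0% of all genes called), and 4 rose and 2 fell in WT (24.8%). Of the keratins among them, KRT8 was higher by 0.78 in Y537S and 0.22 in WT and KRT18 by 0.79 and 0.17. The part of these markers in the miR-331 result was not tested.

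Some values share reads with neighbours or copies. The gene spans of DDIT3 (chr12:57910371-57915520, minus strand) and MARS (chr12:57869228-57911352, plus strand) overlap at their 3′ ends in GRCh37, and the strand setting of the counting is not given in the sources used here, so reads there may have been set aside or assigned to either. The pseudogenes SLC7A5P2 and HSP90B2P, which resemble SLC7A5 and HSP90B1, were at 0.625 to 3.24 CPM and 3.56 to 10.8 CPM, far below the genes themselves.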

How the data were processed

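RNA of 24 libraries was made with a stranded poly-A kit. Per the study's methods, the authors aligned reads to hg19 with HISAT2 and deposited raw gene counts, made with SAMtools and featureCounts (Subread) on UCSC Known Genes. Versions, strand setting and the treatment of reads with several matches are not given in the sources used here. No value was rescaled before deposit. Groups came from the labels. The labels' genotype field spells the Y537S change with other digits than the titles, which were followed. Clones are the only replicates, so p-values without the block set a difference against the spread between 2 clonal lines. The block removes the mean difference between clones, so blocked p-values set the mean response against how far the responses of the clones differ. They lean heavily on dispersion shared across genes, so very small ones are not evidence from more than 2 clones per genotype.

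From the counts, genes were filtered by expression (filterByExpr), scaled by TMM and tested with edgeR 4.0.16 (quasi-likelihood F test, R 4.3.3), with Benjamini-Hochberg adjustment over all genes tested and a threshold of 0.05. The SE is the log2 fold change divided by the root of F. An exact permutation test of 2 against 2 libraries cannot go below p = 0.333 and was not used. Same-named clones were paired because they are the same cell line, and their deviations correlated at 0.12 to 0.49 over 16383 genes. Genotype comparisons cannot be blocked in this way. Alternatives were DESeq2 1.42.0 (the study's tool), RLE size factors, no filter, GC correction by lowess (span 0.3) within each library, all conditions in 1 fit, the clone as a block, both corrections, and each library left out. The inhibitor control as a reference was added after seeing the data. The test was checked on simulated counts.

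The members and lists were chosen with earlier results of these data known. Values per library are given for ATF4, DDIT3, ASNS and HSPA5, for the called member with the largest rise and fall in each role and comparison, for the most often called members of each role and for members whose response differed between genotypes. Other members named, such as SEL1L, CALR, EDEM1 and those with seed matches, were chosen after their values were seen. Total counts were 31379962 to 50526442 per library. Between the clones of a condition, the chi-square per degree of freedom was 11.2 to 48.3, above counting error alone. The exact interval for PSAT1 covers counting error only, whereas the SEs come from the edgeR fit.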

Additional observations from a re-analysis of the deposited data

Results flagged for a closer look

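The response to the miR-331 mimic differed between Y537S and WT cells for 4 of 45 members by the interaction test. Of all genes tested, 9.94% were called, so the members did not stand out by this count. The dependence of these calls on single libraries is given with the result above. The Y537S response exceeded the WT response by 0.65 for PCK2, 0.54 for SHMT2, 0.475 for WARS and 0.44 for MARS on the log2 scale. After the GC correction alone PCK2 and WARS kept the call, and SHMT2 and MARS lost it. With the clone as a block as well, all 4 were called, where 30.6% of all genes were.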

How the results depend on the processing

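Counts of called members changed as follows, with the share of all genes called in the same fit in brackets. The cause was not tested. With DESeq2 they were 11 for miR-301b in Y537S, 8 in D538G and 11 in WT, 2 between the negative controls and 11 for the genotype difference in the miR-331 response. RLE size factors gave 1 for miR-301b in Y537S (3.43%). Without a filter they were 9 for miR-301b in D538G (14.6%), 13 in WT (13.1%) and 16 for miR-181c in D538G (12.4%). That fit gave 1 for the miR-301b difference between D538G and WT (0.0906%) and 7 for the miR-331 difference (9.72%). The GC correction gave 0 for miR-301b in Y537S (0.152%) and 4 in WT (4.66%). It gave 12 for miR-331 in Y537S (20.5%), 9 in WT (7.68%), 5 for miR-181c in D538G (1.38%) and 8 in WT (7.36%). With all conditions in 1 fit, miR-301b called 8 in Y537S (9.11%), 6 in D538G (14.0%) and 11 in WT (13.4%). The clone as a block gave 27 (38.4%), 22 (33.3%) and 24 (28.2%) for miR-301b in Y537S, D538G and WT. It gave 35 for miR-331 in Y537S (60.7%), 20 for miR-181c in D538G (29.3%), 11 for let-7f (11.2%) and 21 between the controls (16.7%). For the differences it gave 2 (0.202%) and 1 (0.147%) in miR-301b, for Y537S and D538G, and 25 (34.1%) in miR-331. The block with the GC correction gave 20 (28.2%), 11 (15.8%) and 11 (14.7%) for miR-301b in Y537S, D538G and WT. It gave 37 for miR-331 in Y537S (53.5%), 12 for let-7f (10.3%) and 15 between the controls (15.5%). For the differences it gave 3 (1.09%) and 1 (0.404%) in miR-301b, for Y537S and D538G, 26 (30.6%) in miR-331 and 1 (0.0711%) in miR-181c. Against the inhibitor control, chosen after seeing the data, miR-301b called 0 (0.441%). In the blocked fit against it, miR-301b called 21 (33.1%) and miR-331 34 (55.5%). Leaving out each library gave 0 to 3, 3 to 7 and 1 to 12 for miR-301b in Y537S, D538G and WT, 14 to 17 and 9 to 19 for miR-331 in Y537S and WT, 5 to 10 and 8 to 13 for miR-181c in D538G and WT, 12 to 24 and 21 to 24 for Y537S and D538G against WT, 0 to 9 for the miR-331 difference and 0 for let-7f, the controls and the other differences. Directions reversed for ASNS after miR-301b in Y537S against the inhibitor control in the blocked fit (-0.243), and under the block plus GC correction for HSPA5 after miR-331 in WT (0.082) and LARS after miR-331 in Y537S (0.142). Of the other values of named genes under alternatives, 1628 kept direction and side of the threshold, 124 lost the call and 110 gained one. Over all genes, calls ran from 23 to 5819 for miR-301b in Y537S (541 in the reported fit), 220 to 4941 in D538G (1750) and 704 to 4269 in WT (1284), 3053 to 9035 for miR-331 in Y537S (4913) and 1163 to 5599 in WT (3755), 204 to 4341 for miR-181c in D538G (1412) and 1101 to 4173 in WT (2452), 0 to 1694 for let-7f, 0 to 2517 between the controls and 1206 to 5345 for the miR-331 difference (1557). When a library was left out, calls over all genes moved as well. The values of CHAC1, and of PSAT1 in D538G, rest on few counts.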
